A study of Mus musculus with 4 samples.

Results

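The NRF2 antioxidant response was followed through 10 genes in tumor-associated macrophages (TAMs) from B16 melanomas: the transcription factor itself (Nfe2l2), its inhibitor (Keap1) and 8 enzymes and transporters that it is known to induce (Gclc, Gclm, Slc7a11, Gsr, Txnrd1, Srxn1, Prdx1 and Nqo1). The genes were listed by symbol and matched by Entrez identifier, and all 10 were found among the 16739 genes with a value in any of the 4 libraries. CD45+CD11b+F4/80+ cells were sorted 16 days after B16-F10 cells, a melanoma line, had been placed under the abdominal skin of 6 to 8 week old C57BL/6 mice. There were 2 wild-type (WT) libraries and 2 from mice labelled Trim24-/-, in which floxed Trim24, a bromodomain protein and ubiquitin ligase, is deleted by LysM-Cre, a recombinase active across myeloid cells and not in macrophages alone. The study's methods name littermates as the WT controls.

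NRF2 is held at a low level in resting cells because KEAP1 presents it to a CUL3 ubiquitin ligase for degradation. Oxidants and electrophiles modify cysteines of KEAP1, NRF2 accumulates, pairs with small MAF proteins and binds antioxidant response elements in its target genes. The response is therefore controlled mainly at the protein level, and its output is read from the target transcripts, which replenish glutathione and thioredoxin. In macrophages it is known for limiting oxidative damage and for restraining inflammatory cytokine genes.

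A core of the antioxidant response element, TGACNNNGC, was sought on both strands from 250 bases before to 50 bases after the transcription starts in RefSeq (GRCm38.p6). Of the 10 genes, 8 had such a window and 5 of these 8 held the core, as did 14.0% of all 27025 genes with a window. These 5 stretches are printed to show the letters through which NRF2 is known to act; each is given 5′ to 3′ on the strand of the gene, with the core in capitals and 10 bases on either side. In Nfe2l2 the core reads TGACNNNGC, and in the other genes it reads GCNNNGTCA, which is the same core on the opposite strand.
Nfe2l2: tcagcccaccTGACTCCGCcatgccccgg
Srxn1: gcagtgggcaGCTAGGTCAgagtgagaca
Gclm: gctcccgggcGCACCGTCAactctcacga
Prdx1: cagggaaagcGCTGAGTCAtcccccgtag
Txnrd1: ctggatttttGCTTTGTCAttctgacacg

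The stretch of Nfe2l2 lies at chr2:75704885-75704913 with its core starting 240 bases before the transcription start. That of Gclm lies at chr3:122245413-122245441 with its core 134 bases before a start at base 122245557, inside the span given for the gene below. That of Prdx1 lies at chr4:116685456-116685484 with its core 133 bases before the start. The stretch of Txnrd1 lies at chr10:82859104-82859132, with its core 92 bases before an internal start of the gene, and it was found in 1 of 3 windows of that gene. In Srxn1, at chr2:152105542-152105570, the core begins at base 29 of the transcript. The windows of Slc7a11, Keap1 and Nqo1 did not hold these letters, and Gclc and Gsr were not searched. A match is a description of the letters and not of binding.

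The libraries held 4476122 to 5172407 expected counts, so that a floor of 3 counts, which covers counting error alone, corresponded to 0.606 to 0.639 CPM (counts scaled to a common library size by edgeR). All 9 macrophage markers checked were present, together at 12106 to 14707 CPM in WT and at 15800.3 to 17549 CPM in the other libraries, with Adgre1, which encodes F4/80, at 1038.5 to 1304 CPM. Both libraries labelled deficient were above both WT libraries for 6 of the 9, against 21.4% of all genes tested, and below for 0. Trim24 was at 5.86 CPM in WT replicate 1, 2.08 CPM in WT replicate 2, 3.41 CPM in Trim24-deficient replicate 1 and 0.411 CPM in Trim24-deficient replicate 2. The targeted transcript did not part the groups, so those labelled deficient are called mutant-labelled libraries. Xist, an X-linked RNA of female cells, was at 6.46 to 10.9 CPM in WT and at 256 to 437 CPM in mutant-labelled libraries, and the Y-linked Ddx3y was at 73.7 to 102 CPM and at 0.411 to 0.426 CPM, so genotype and sex, which the study's methods describe as matched, cannot be told apart in any difference below. The 10 genes are all on autosomes. The labels do not say how the mice were paired or handled in batches. In bulk RNA, fewer cells of a type and less RNA per cell cannot be told apart.

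Levels between genes were compared in FPKM, which divides reads by transcript length. Prdx1, a peroxiredoxin that reduces hydrogen peroxide, was the most abundant of the 10 genes at 863 ± 42.7 FPKM in WT and 746 ± 46.5 FPKM in mutant-labelled TAMs (SD, n = 2 each). Slc7a11, the cystine-importing subunit of system xc-, followed at 120.1 ± 12.98 and 92.7 ± 4.09 FPKM, and Nfe2l2 at 64.7 ± 8.06 and 59.1 ± 4.55 FPKM. Txnrd1, the cytosolic thioredoxin reductase, was at 32.5 ± 0.311 FPKM in WT TAMs, above Keap1 at 28.9 ± 1.16 FPKM, whereas in mutant-labelled TAMs Keap1 (32.4 ± 2.53) was above Txnrd1 (20.3 ± 7.06).

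Gclm, Gsr and Srxn1 lay between 3.44 and 12.9 FPKM in all libraries. In WT TAMs the ranges of Gclm and Gsr, and of Gsr and Srxn1, overlapped, and in mutant-labelled TAMs those of Gsr and Srxn1, and of Srxn1 and Gclm, so their order is within the spread between libraries. Gclc was below them at 3.07 ± 0.205 and 1.08 ± 0.042 FPKM, and Nqo1 was the lowest at 0.13 and 1.30 FPKM in WT and 0.39 and 0.87 FPKM in mutant-labelled libraries.

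**Figure D1:**
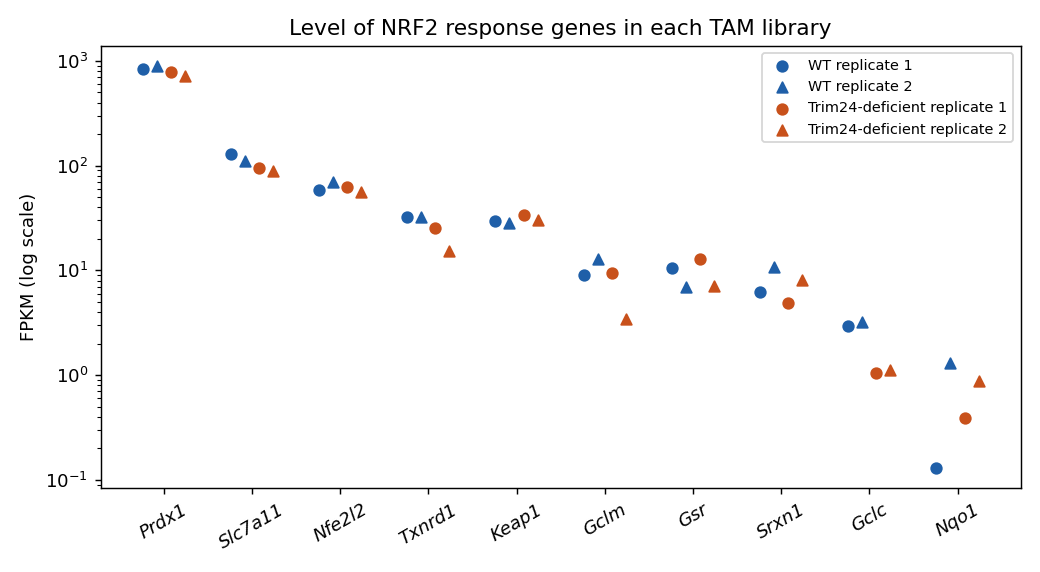
FPKM of the 10 genes on a log axis, ordered by their mean in WT TAMs, with 1 point per library (blue, WT; orange, labelled Trim24-deficient; circles, replicate 1; triangles, replicate 2). Prdx1 is at 713 FPKM or above in every library, and Gclc shows its orange points at 1.05 and 1.11 FPKM below its blue points at 2.92 and 3.21 FPKM.

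To ask whether the response differed between the genotype labels, all genes past the filter on low counts were tested together with edgeR's quasi-likelihood test, and a call required both more than 1.5-fold change and an adjusted p below 0.05. Of the 10 genes, 9 were tested and 0 were called, against 0.372% of the 11302 genes tested. At an unadjusted p below 0.05 there was 1 (Gclc), against 12.2% of all genes, and DESeq2 and limma also called 0. Both mutant-labelled libraries were below both WT libraries in 3 of 9 genes (Gclc, Txnrd1 and Slc7a11), against 23.0% of all genes tested, and above them in 1 of 9 (Keap1), against 21.4% of all genes tested. The log2 fold change was below 0 in 6 of 9 genes, with a median of -0.22 against -0.0059 over all genes. With 2 libraries per group an exact two-sided permutation test of a single gene cannot go below p = 0.333.

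The first step of glutathione synthesis gave the largest difference among the 9 tested genes. Gclc (Entrez 14629, chr9:77754535-77794489 in GRCm38, as for all positions given) encodes the catalytic subunit of glutamate-cysteine ligase, the rate-limiting enzyme of that synthesis. It was at 9.89 CPM in WT replicate 1, 10.4 CPM in WT replicate 2, 3.83 CPM in mutant-labelled replicate 1 and 4.11 CPM in mutant-labelled replicate 2, from expected counts of 49, 50, 18 and 20. Replicates of a group lay close together and the groups were far apart, with levels 2.55-fold lower in mutant-labelled TAMs. The log2 fold change was -1.35 (standard error, SE, 0.37, 95% interval -2.19 to -0.51, edgeR adjusted p = 0.2), so the difference did not pass after adjustment over all genes. It was between -1.40 and -1.29 with each library left out in turn.

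Gclm (Entrez 14630, chr3:122245487-122267215) encodes the modifier subunit that makes the same ligase more active. It was at 18.2 CPM in WT replicate 1, 24.8 CPM in WT replicate 2, 20.7 CPM in mutant-labelled replicate 1 and 7.60 CPM in mutant-labelled replicate 2. Mutant-labelled replicate 1 was within the WT range and replicate 2 was well below all other libraries. The log2 fold change was -0.61 (SE 0.42, 95% interval -1.54 to 0.33, edgeR adjusted p = 0.586), which was within the spread between libraries. Without mutant-labelled replicate 1 it was -1.49 and was called (edgeR adjusted p = 0.0139, in a fit that called 3.46% of 11722 genes), whereas without mutant-labelled replicate 2 it was -0.054; over all 14 alternatives its adjusted p ran from 0.0139 to 0.999.

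The subunits did not keep a fixed ratio. In FPKM, the ratio of Gclm to Gclc was 3.08 for WT replicate 1, 3.99 for WT replicate 2, 9.04 for mutant-labelled replicate 1 and 3.10 for mutant-labelled replicate 2. Mutant-labelled replicate 1 was thus apart from the other libraries in this ratio, having low Gclc with Gclm at a WT level.

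Cystine, which supplies the cysteine for glutathione, enters through Slc7a11 (Entrez 26570, chr3:50364936-50499087). It was at 1180.45 CPM in WT replicate 1, 970.3 CPM in WT replicate 2, 939 CPM in mutant-labelled replicate 1 and 896 CPM in mutant-labelled replicate 2. The mutant-labelled libraries were below both WT libraries by little, and the log2 fold change was -0.23 (SE 0.21, 95% interval -0.71 to 0.25, edgeR adjusted p = 0.71). With transcripts of 9227 bases, Slc7a11 is long against the median of 2810 bases, and across all tested genes log2 fold changes and length had a Spearman's rho of -0.249. With the trend on length removed, its log2 fold change was 0.031. Slc7a11 is known to be used by pigment cells, and the 6 melanoma markers together were at 740 to 783 CPM in WT and at 585 to 789 CPM in mutant-labelled libraries, with Tyr, the melanin-forming tyrosinase, at 375 to 496 CPM and its groups overlapping. Both mutant-labelled libraries were below WT for 3 of the 6, against 23.0% of all genes, and above WT for 0, against 21.4%. The 3 were the pigment cell genes Mlana, Tyrp1 and Dct (log2 fold change -0.66, -0.65 and -0.46). Of the mutant-labelled libraries, replicate 1 was the lower for these 3, and replicate 2 was the lower for Slc7a11. The part of melanoma RNA in the level of Slc7a11 was not tested. Its partner chain Slc3a2 was at 639 and 706 CPM in WT and at 631 and 692 CPM in mutant-labelled libraries.

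Gsr (Entrez 14782, chr8:33653238-33698162) encodes glutathione reductase, which returns oxidized glutathione to its reduced form. It was at 28.1 CPM in WT replicate 1, 17.7 CPM in WT replicate 2, 36.6 CPM in mutant-labelled replicate 1 and 20.3 CPM in mutant-labelled replicate 2. The groups overlapped, and replicate 1 was the higher library under each label. The log2 fold change was 0.31 (SE 0.33, edgeR adjusted p = 0.744) and it was -0.17 without mutant-labelled replicate 1. Gss, which joins glycine to the product of glutamate-cysteine ligase, was at 29.7 and 26.9 CPM in WT and at 25.3 and 37.0 CPM in mutant-labelled libraries.

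In the thioredoxin arm, Txnrd1 (Entrez 50493, chr10:82833951-82897724) was at 109 CPM in WT replicate 1, 102 CPM in WT replicate 2, 90.5 CPM in mutant-labelled replicate 1 and 54.7 CPM in mutant-labelled replicate 2. All mutant-labelled values were below the WT values, and mutant-labelled replicate 2 was the lowest. The log2 fold change was -0.54 (SE 0.24, 95% interval -1.08 to 0.011, edgeR adjusted p = 0.416). Without mutant-labelled replicate 1 it was -0.94, and without mutant-labelled replicate 2 it was -0.21. Txn1, the thioredoxin that Txnrd1 reduces, did not share this order, being at 346 and 225 CPM in WT and at 401 and 286 CPM in mutant-labelled libraries.

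Prdx1 (Entrez 18477, chr4:116685599-116700000) was at 1142 CPM in WT replicate 1, 1174 CPM in WT replicate 2, 1150.4 CPM in mutant-labelled replicate 1 and 1069 CPM in mutant-labelled replicate 2. Its groups overlapped, and its log2 fold change was -0.061 (SE 0.21, edgeR adjusted p = 0.93). Its 95% interval of -0.53 to 0.40 does not reach a 1.5-fold change in either direction. Srxn1 (Entrez 76650, chr2:152105524-152111376), the sulfiredoxin that repairs overoxidized peroxiredoxins, was at 17.4 and 28.3 CPM in WT and at 14.7 and 24.5 CPM in mutant-labelled libraries. Here replicate 2 was the higher library under each label, and the log2 fold change of -0.22 (SE 0.33, edgeR adjusted p = 0.829) turned to 0.10 without mutant-labelled replicate 1 and to 0.17 without WT replicate 2.

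Nqo1 (Entrez 18104, chr8:107388225-107403205), a quinone reductase widely used as a readout of NRF2, was scarcely detected. WT replicates 1 and 2 gave 1 and 9 expected counts (0.202 and 1.87 CPM), and mutant-labelled replicates 1 and 2 gave 3 and 7 (0.639 and 1.44 CPM). WT replicate 1 was below the floor of 3 counts and mutant-labelled replicate 1 was at it, so the filter on low counts removed the gene and a difference was not detectable at this depth.

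The regulators themselves showed the smallest standard errors. Nfe2l2 (Entrez 18024, chr2:75675513-75704663) was at 135 CPM in WT replicate 1, 159 CPM in WT replicate 2, 161 CPM in mutant-labelled replicate 1 and 147 CPM in mutant-labelled replicate 2. The groups overlapped, and the log2 fold change was 0.065 (SE 0.19, 95% interval -0.36 to 0.49, edgeR adjusted p = 0.921), and -0.085 with library totals in place of TMM, a scaling that moved the median of all genes to -0.15. It was also below 0 with limma on FPKM, at -0.13 to -0.12, in fits where the median of all genes was -0.15 to -0.089. Keap1 (Entrez 50868, chr9:21229730-21239332) was at 93.1 and 84.8 CPM in WT and at 115 and 104 CPM in mutant-labelled libraries, above WT in both. Its log2 fold change was 0.30 (SE 0.18, 95% interval -0.11 to 0.71, edgeR adjusted p = 0.539). In FPKM, Nfe2l2 stood at 1.98 and 2.50 times the level of Keap1 in WT libraries and at 1.83 times in each mutant-labelled library.

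**Figure D2:**
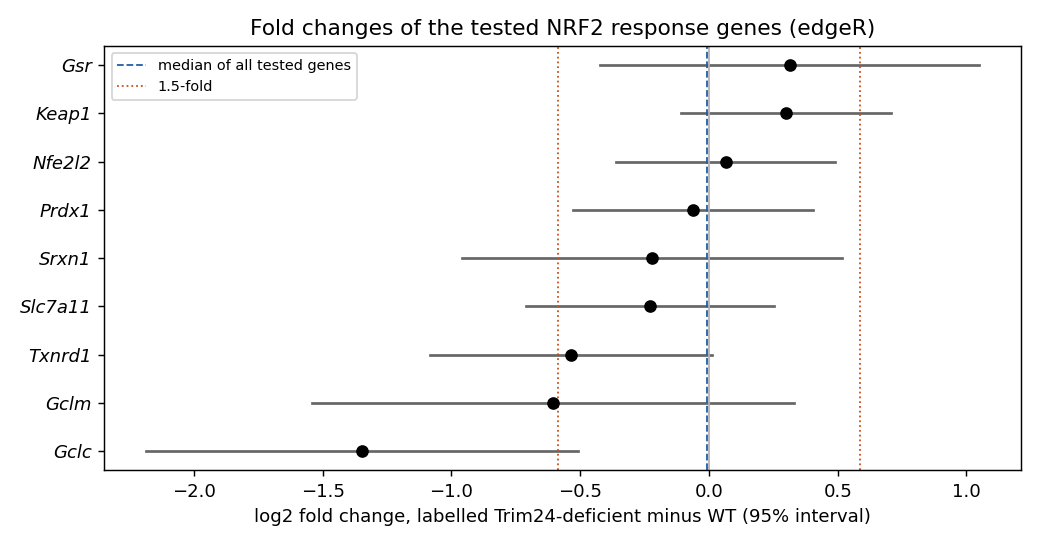
Log2 fold change of the 9 tested genes, mutant-labelled minus WT (points), with 95% intervals from edgeR (lines), the median of all tested genes (blue dashes) and the 1.5-fold limits (orange dots). Gclc at -1.35 is the gene whose interval does not reach 0, and that of Txnrd1 ends at 0.011.

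The spread between libraries was not the same for all genes. In mutant-labelled TAMs, replicate 1 was 2.72-fold above replicate 2 for Gclm, 1.80-fold for Gsr and 1.66-fold for Txnrd1, whereas for Srxn1 replicate 2 was 1.66-fold above replicate 1. Hmox1, the heme oxygenase induced by NRF2 and by loss of BACH1, was 1.74-fold higher in mutant-labelled replicate 1 than in replicate 2. Across all tested genes the median absolute difference between these libraries was 0.30 on the log2 scale. Mutant-labelled replicate 2 was the lowest library for 4 of the 9 genes, against 28.8% of all genes tested.

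**Figure D3:**
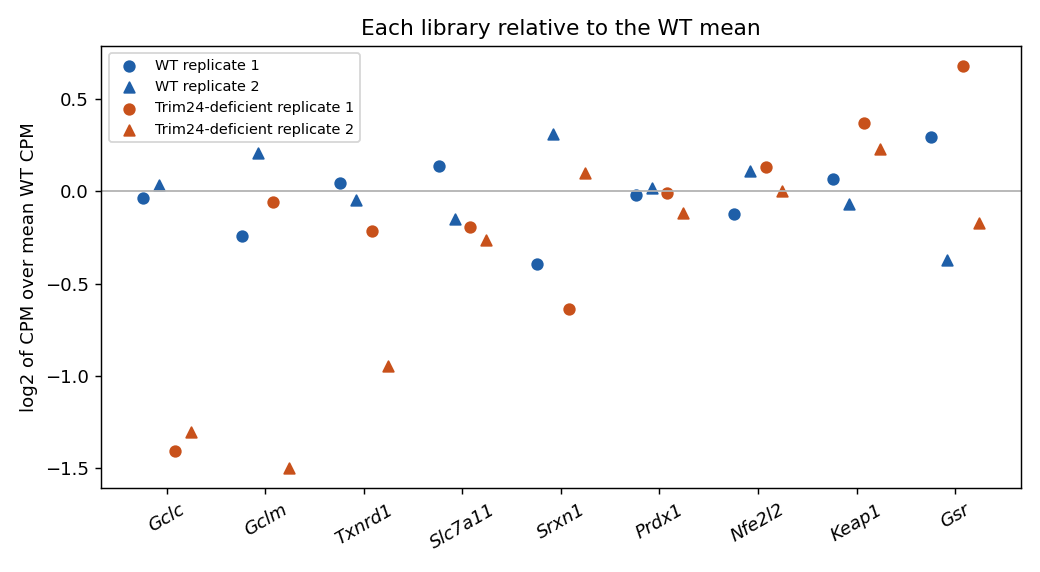
Log2 of the CPM of each library over the mean WT CPM for the 9 tested genes, with colors and shapes for group and replicate as in the plot of levels. For Gclc both orange points lie apart from the blue points, whereas for Gclm the low value comes from mutant-labelled replicate 2 (orange triangle) and for Gsr and Srxn1 circles and triangles part under both labels.

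Other genes around the pathway were taken from 3 lists written from textbook knowledge. Partners and repressors of NRF2 and the machinery that degrades it made up the first list, of which 11 of 12 genes were tested and 0 were called by edgeR, with 1 at an unadjusted p below 0.05 (12.2% of all genes), 0 called by DESeq2 and 0 by limma. Both mutant-labelled libraries were above WT for 2 of 11 genes (21.4% of all genes) and below for 2 (23.0% of all genes), and the median log2 fold change was 0.017. Bach2, a BACH family repressor better known from lymphocytes, was at 10.5 and 12.3 CPM in WT and at 6.39 and 5.55 CPM in mutant-labelled libraries, with log2 fold change -0.93 (SE 0.34, edgeR adjusted p = 0.317). Bach1, which competes with NRF2 for the same elements, was at 59.8 and 69.0 CPM in WT and at 72.2 and 44.6 CPM in mutant-labelled libraries.

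Of the small MAF partners, Mafg was at 15.8 and 19.8 CPM in WT and at 12.6 and 11.5 CPM in mutant-labelled libraries (log2 fold change -0.56, edgeR adjusted p = 0.452), and Mafk was at 41.8 and 31.7 CPM in WT and at 42.4 and 32.5 CPM in mutant-labelled libraries, its replicates differing more than its groups. Rbx1, a subunit of the CUL3 ligase, had a log2 fold change at 0.23 (adjusted p = 0.674), and Dpp3, which binds KEAP1, at 0.38 (adjusted p = 0.498), both from edgeR.

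Among other targets of NRF2, 28 of 35 genes were tested and 0 were called by edgeR, with 4 at an unadjusted p below 0.05 (12.2% of all genes), 0 called by DESeq2 and 0 by limma. Both mutant-labelled libraries were above WT for 6 of 28 genes, a share equal to the 21.4% of all genes, and below for 4, or 14.3% against 23.0% of all genes, and the median log2 fold change was 0.047. Hmox1 was at 1259 CPM in WT replicate 1, 888 CPM in WT replicate 2, 996 CPM in mutant-labelled replicate 1 and 573 CPM in mutant-labelled replicate 2. Its groups overlapped, with log2 fold change -0.45 (SE 0.30, edgeR adjusted p = 0.57), and mutant-labelled replicate 2 was again the lowest library.

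Biliverdin reductase B (Blvrb), which acts after heme oxygenase, was at 249 and 184 CPM in WT and at 431 and 299 CPM in mutant-labelled libraries, with log2 fold change 0.75 (SE 0.25, edgeR adjusted p = 0.263). Without mutant-labelled replicate 2 it was 0.996 and was called (edgeR adjusted p = 0.00532, in a fit that called 5.54% of 11770 genes), with adjusted p up to 0.999 over the 14 alternatives. The glutathione transferase Gstp1 was at 116 and 89.6 CPM in WT and at 155 and 206 CPM in mutant-labelled libraries, with log2 fold change 0.81 (SE 0.22, edgeR adjusted p = 0.196). With 1 library left out its log2 fold change was 0.60 to 1.03. Mouse Gstp genes are close copies whose reads the counting could have split. In the opposite direction, the stress pseudokinase Trib3 had a log2 fold change at -1.24 (edgeR adjusted p = 0.38), which was -1.89 to -0.79 with 1 library left out. Abcc1, which exports glutathione conjugates, had one at -0.40 (edgeR adjusted p = 0.457).

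Enzymes that handle peroxide, superoxide and thiols outside the 10 genes made up the third list. Of its 36 genes, 30 were tested and 0 were called by edgeR, with 8 at an unadjusted p below 0.05, of which 7 were higher and 1 was lower, against 12.2% of all genes, of which 744 were higher and 635 lower. Both mutant-labelled libraries were above WT for 10 of 30 genes and below for 2 of 30, against the 21.4% and 23.0% given above, and the median log2 fold change was 0.094. DESeq2 called 2 of the 30, Sod2 and Prdx5, against 1.38% of all genes, and limma called 0.

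Sod2, the mitochondrial superoxide dismutase and a known target of NF-κB, was at 205 CPM in WT replicate 1, 155 CPM in WT replicate 2, 373 CPM in mutant-labelled replicate 1 and 331 CPM in mutant-labelled replicate 2. The groups were well apart, with log2 fold change 0.97 (SE 0.21, 95% interval 0.49 to 1.45, edgeR adjusted p = 0.12), and 0.98 with DESeq2 (adjusted p = 0.00745). Prdx5, a peroxiredoxin of mitochondria, peroxisomes and cytosol, was at 274 and 194 CPM in WT and at 475 and 446 CPM in mutant-labelled libraries, with log2 fold change 0.98 (SE 0.23, edgeR adjusted p = 0.138), and 0.99 with DESeq2 (adjusted p = 0.00801). With each library left out in turn, the log2 fold change was 0.78 to 1.20 for Sod2 and 0.75 to 1.26 for Prdx5. With all 4 libraries and no block on the replicate number, edgeR called neither gene.

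Gpx3, a secreted glutathione peroxidase, was at 73.9 and 60.2 CPM in WT and at 89.9 and 176 CPM in mutant-labelled libraries, its log2 fold change of 0.99 (SE 0.29, edgeR adjusted p = 0.222) resting largely on mutant-labelled replicate 2. It was 1.40 without mutant-labelled replicate 1 and 0.42 without mutant-labelled replicate 2. Prdx6 was at 78.1 and 84.6 CPM in WT and at 112 and 135 CPM in mutant-labelled libraries. Its log2 fold change was 0.60 (edgeR adjusted p = 0.239), and 0.46 to 0.73 with 1 library left out. Prdx2, the closest relative of Prdx1 in this list, was at 208 and 174 CPM in WT and at 238 and 235 CPM in mutant-labelled libraries (log2 fold change 0.31, edgeR adjusted p = 0.554).

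Chac1, which degrades glutathione, was at 3.03 and 3.13 CPM in WT and at 0.852 and 0.616 CPM in mutant-labelled libraries, from expected counts of 15, 15, 4 and 3. Its log2 fold change of -2.03 (SE 0.65, edgeR adjusted p = 0.251) was the most negative of the lists, at counts near the floor. Txnrd3 had a log2 fold change at -0.38 (edgeR adjusted p = 0.788), and Txnip, which inhibits thioredoxin, was at 303 and 271 CPM in WT and at 298 and 208 CPM in mutant-labelled libraries.

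**Figure D4:**
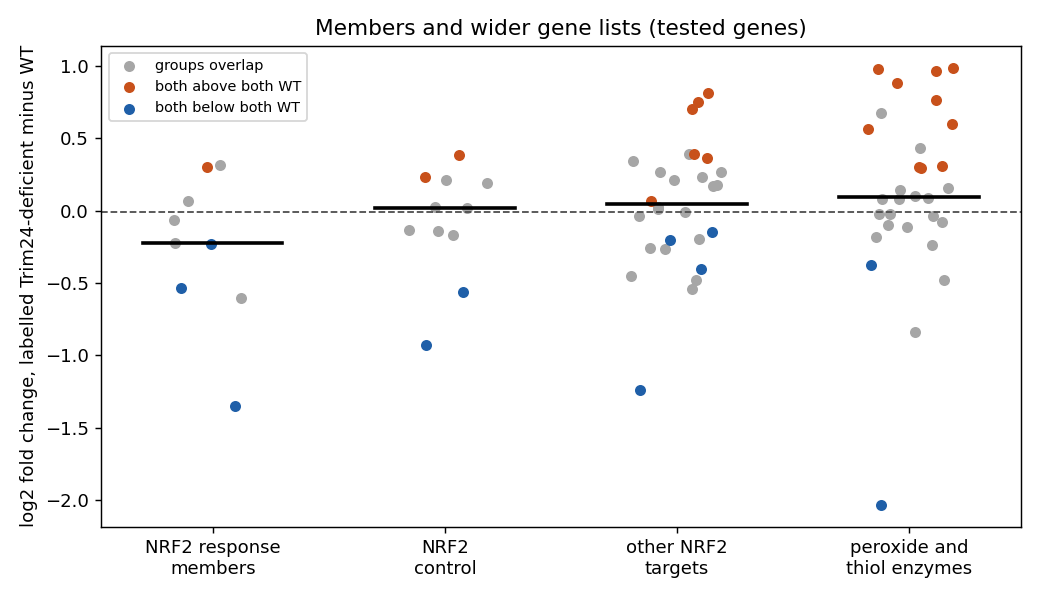
Log2 fold change of each tested gene (points) in the NRF2 response genes and the 3 wider lists, with the median of each list (black bar) and of all tested genes (dashed line). Orange and blue points are genes with both mutant-labelled libraries above or below both WT libraries; the peroxide and thiol enzymes hold 10 orange and 2 blue points, and the 9 NRF2 response genes hold 1 orange and 3 blue points.

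Summed markers of monocytes and neutrophils also differed in level between the labels, although 0 markers of other myeloid cells were called. The 5 monocyte markers together were at 1053 and 1169 CPM in WT and at 1964 and 2295 CPM in mutant-labelled libraries, with 4 of 5 above WT in both, against 21.4% of all genes. The 7 neutrophil markers together were at 176 and 206 CPM in WT and at 271 and 409 CPM in mutant-labelled libraries. Of the 6 with a value, 5 were above WT in both, against 21.4% of all genes. S100a8 was at 17.4 and 15.6 CPM in WT and at 35.1 and 118 CPM in mutant-labelled libraries. Its log2 fold change was 2.21, with 1.995 for S100a9 and 0.83 for Csf3r. Ly6g was at 0 in both WT libraries and at 1.92 and 0.822 CPM in mutant-labelled libraries. Ly6g and Retnlg, also among the 5, did not pass the filter on low counts. Mpo was at 0 in every library, and Cxcr2 overlapped between the groups (log2 fold change -0.30). The 6 dendritic cell markers together were at 44.2 to 48.1 CPM in WT and at 36.4 to 78.4 CPM in mutant-labelled libraries, so their sums overlapped. Both mutant-labelled libraries were below WT for 2 of the 6, against 23.0% of all genes, and above WT for 0, against 21.4%. The 2 were Flt3 (-2.61 on the log2 scale, at 0.205 to 5.42 CPM) and Cd209a (-1.23, at 3.19 to 11.7 CPM), and the others overlapped. The 7 T and NK cell markers together were at 141 and 74.0 CPM in WT and at 299 and 76.6 CPM in mutant-labelled libraries, so that replicate 1 was higher under each label, as for Gsr. The part of such cells in the values of Gclc, Sod2, Prdx5 and the other genes above was not tested.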

How the data were processed

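Sorted TAMs were analysed in 2 WT libraries and 2 labelled Trim24-deficient. Alignment by the authors used Bowtie against GRCm38/mm10, and genes were quantified with RSEM (versions not given in the sources used here). They deposited, per library, an expected count per gene (not normalized), FPKM values (scaled by RSEM to transcript length and library total) and a transcript length. The labels do not state that replicates are separate animals. Only genes above 0 are listed, and a missing gene was taken as 0. Symbols and coordinates are from RefSeq (GRCm38.p6); 16698 of 16739 identifiers matched.

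Expected counts were rounded. Of all genes, 11302 passed filterByExpr of edgeR 4.0.16 (R 4.3.3), which then gave TMM factors and the quasi-likelihood test between labels (glmQLFit, glmQLFTest, Benjamini-Hochberg). Calls took a fold change above 1.5 and an adjusted p below 0.05, as in the study's methods. Standard errors are the log2 fold change divided by the square root of F. CPM values come from the same scaling. Alternatives used DESeq2 1.42.0, limma 3.58.1 on the log2 of FPKM plus 1 or plus 0.1, other scaling and filters, removal of a length trend, the replicate number as a block, and each library left out. The p-values measure the spread between these samples. Scripts were tested on simulated data.

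The members and lists were chosen with earlier results of these data known. Named are the 10 members, 12 set relatives (Hmox1, Bach1, Mafg, Mafk, Txn1, Slc3a2, Gss, Prdx2, Prdx5, Prdx6, Txnip and Sod2), any called gene of a wider list, and up to 2 genes per list and direction with the largest change and no overlap.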

Additional observations from a re-analysis of the deposited data

How the results depend on the processing

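Of 11302 genes tested, 42 were called (33 higher, 9 lower). Alternatives called 634 with the replicate number as a block, 507 with that block and the length trend removed, 156 with DESeq2, 25 to 652 with 1 library left out, and 23, 20 and 0 with limma on log2(FPKM + 1), on log2(FPKM + 0.1) and on all genes; the limma splits of 14 higher and 9 lower and of 11 and 9 were less one-sided. The labels do not say that equal replicate numbers mark a shared litter or day, and deviations from the group means of same-numbered libraries correlated at 0.166 across genes. With the replicate block 1 member was called, Gclc (-1.35, adjusted p = 0.0461 from edgeR), as were 3 other NRF2 targets (Blvrb, Gstp1 and Mgst1) and 4 peroxide and thiol enzymes (Glrx, Gpx3, Prdx5 and Sod2), in a fit that called 5.61% of all genes. With the block and the length trend removed, 0 members (Gclc adjusted p = 0.0821 from edgeR), 2 other targets and 4 enzymes were called. DESeq2 called 0 members and 2 enzymes. Leaving out each library called 0 to 2 members, 0 to 2 other targets and 0 to 4 enzymes; the calls came without mutant-labelled replicate 1 or replicate 2, and included Glrx and Gstm1. Glrx, Gstm1 and Mgst1 are named after their values were seen. The list of NRF2 control genes gave 0 calls in every alternative.

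The median log2 fold change of the members, -0.22, was -0.37 with library totals and -0.37 with log2(FPKM + 0.1). In each of these fits the median of all genes was -0.15. With 1 library left out, the median of the members was -0.17 to -0.042. Among the named genes, the direction turned for these values, none of which was called. Library totals gave -0.085 for Nfe2l2, -0.12 for Mafk and -0.0082 for Gss, in a scaling that moved the median of all genes to -0.15; upper-quartile scaling gave -0.028 for Mafk. log2(FPKM + 1), filtered or not, gave -0.12 for Nfe2l2, -0.11 for Mafk and -0.028 for Gss, and log2(FPKM + 0.1) gave -0.13, -0.12 and -0.031. The median of all genes was -0.13 (filtered) and -0.089 (not filtered) with log2(FPKM + 1), and -0.15 with log2(FPKM + 0.1). Removal of the length trend gave 0.031 for Slc7a11 and 0.012 for Bach1, and 0.049 for Slc7a11 with the replicate block. With 1 library left out, the ranges crossing 0 were -0.031 to 0.19 for Nfe2l2, -0.63 to 0.17 for Srxn1, -0.17 to 0.70 for Gsr, -0.52 to 0.17 for Bach1, -0.17 to 0.26 for Mafk, -0.010 to 0.63 for Txn1, -0.091 to 0.050 for Slc3a2, -0.16 to 0.39 for Gss and -0.46 to 0.053 for Txnip. The cause of these turns was not tested. A lone library left in a group is assumed to vary like the other group. At this depth Nqo1 stayed below the filter on low counts, and the alternatives without a filter fitted all 10 members and called 0 of them.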
